A study of Mus musculus with 3186 samples.

Results

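Among the 257 single cells sorted from brains of Pdgfra-H2BGFP mice, 150 were oligodendrocytes, the cells that wrap axons in myelin. They were chosen from the read counts themselves: a cell belonged when at least 2 of Mog, Mag and Mobp reached 50 counts per 1000000 reads of that cell (CPM) and fewer than 2 of the fibroblast genes Col1a1, Col1a2, Dcn and Lum did. The 150 cells made up 58.4% of the sort (exact 95% binomial interval 52.1 to 64.5%). Plate Pdgfra1 gave 33 of 107 cells (30.8%, 22.3 to 40.5%), and plate Pdgfra2 gave 117 of 150 cells (78.0%, 70.5 to 84.3%). A further 85 cells passed the fibroblast genes only, 57 on Pdgfra1 and 28 on Pdgfra2, and are called fibroblast-rule cells here. No cell passed both rules, and 22 passed neither. In the other reporter lines of the study the oligodendrocyte rule was met by 0 of 1484 cells (exact upper limit 0.248%) and by 0 of 1445 cells (0.255%).

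The study profiled single cells of the adult mouse brain vasculature, 3186 in all, with full-length SMART-seq2 libraries. All mice were C57BL/6 adults, 12 to 15 weeks old, and carried fluorescent reporters. Besides Pdgfra-H2BGFP, in which the Pdgfra locus drives a nuclear green protein, there were mice with both Pdgfrb(BAC)eGFP and NG2dsRed, sorted for mural cells, and Cldn5(BAC)eGFP mice, sorted for endothelium. The labels tie no cell to an animal, so each line counts as 1 sample, no test between groups was possible, and no p-value is given. Plates are the only subdivision; they are not replicates of a condition, and intervals cover counting error only, since reads without molecular tags are not independent molecules.

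Oligodendrocytes arise from progenitors that express the growth factor receptor Pdgfra and the proteoglycan Cspg4. On leaving the cycle the progenitors lose both, pass a short premyelinating stage marked by genes such as Gpr17, Bmp4 and Enpp6, and then build a sheath rich in cholesterol and galactolipid around proteins such as Mbp. Mature cells feed and buffer the axon through carriers, potassium channels and gap junctions, and the regulators Olig1, Olig2, Sox10 and Myrf hold the lineage program.

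The rule separated the cells widely. The 3 genes reached 50 CPM together in 147 of the 150 cells, and 2 of the 3 did in the remaining 3 cells, all on Pdgfra2. Ranked by the middle value of the 3 genes, the lowest cells inside stood at 457, 667 and 1232 CPM, and the highest cell outside at 19.7 CPM. These values chose the cells and are given as a description. In 1 oligodendrocyte a single fibroblast gene, Dcn, reached the cut, at 54.1 CPM.

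The sequenced depth differed between plates. Reads per oligodendrocyte ran from 175353 to 1467635 on Pdgfra1 with a median of 1037490, and from 124065 to 659608 on Pdgfra2 with a median of 477140. The median numbers of genes with a read were 3905 and 3225 on those plates. Over the whole series a cell had 99905 to 1606954 reads, with a median of 350339. Plate and animal cannot be told apart. At 20 CPM, 0 of the 107 cells of Pdgfra1 had a Y-linked gene, 90 had Xist and 17 had neither, whereas on Pdgfra2, of 150 cells, 46 had a Y-linked gene, 61 had Xist and 43 had neither. Pdgfra2 thus held cells of both kinds. No 2 cells held identical counts. Wells with 2 cells were looked for by markers only, and 15 oligodendrocytes (3 on Pdgfra1, 12 on Pdgfra2) had at least 2 markers of another cell type at 50 CPM. Astrocyte markers did so in 10 cells, microglial, neuronal and endothelial markers in 2 each, and mural, perivascular macrophage and Schwann markers in 0 cells. These wells were kept, and the counts without them are in the closing section.

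The myelin genes are shown first by sequence, for 3 of the 26 genes of a myelin list, whose upstream bases hold 1 of a pair of related motifs, CTGGCAC and CTGGTAC. Mag is an adhesion protein of the inner sheath, Mog a protein of its outermost surface, and Cnp an enzyme of non-compact myelin. The bases are the 250 before the annotated start in RefSeq (GRCm38.p6), 5′ to 3′ along the gene. They lie at chr7:30914864-30915113 on the minus strand for Mag, chr17:37023399-37023648 on the minus strand for Mog and chr11:100574689-100574938 on the plus strand for Cnp. Capitals mark CTGGCAC in Mag and Cnp and, in Mog, CTGGTAC read from the opposite strand.

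Mag: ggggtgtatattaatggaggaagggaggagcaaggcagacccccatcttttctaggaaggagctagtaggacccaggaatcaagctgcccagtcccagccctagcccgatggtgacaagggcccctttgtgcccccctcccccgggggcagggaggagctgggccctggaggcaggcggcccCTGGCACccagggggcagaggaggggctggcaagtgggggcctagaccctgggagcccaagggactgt
Mog: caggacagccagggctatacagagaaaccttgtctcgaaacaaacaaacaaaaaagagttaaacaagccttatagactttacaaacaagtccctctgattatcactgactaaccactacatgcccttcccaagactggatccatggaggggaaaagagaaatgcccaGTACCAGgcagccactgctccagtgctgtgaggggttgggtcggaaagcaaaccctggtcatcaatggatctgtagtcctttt
Cnp: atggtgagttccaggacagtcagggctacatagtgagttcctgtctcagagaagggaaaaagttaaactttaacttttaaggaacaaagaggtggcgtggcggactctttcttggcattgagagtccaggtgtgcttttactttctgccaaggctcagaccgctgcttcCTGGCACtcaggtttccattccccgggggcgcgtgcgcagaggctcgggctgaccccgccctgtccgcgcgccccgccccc

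Searched on both strands in windows of 250 bases before to 50 bases after a start, CTGGCAC or CTGGTAC stood in 7 of the 31 promoters found for 21 of the myelin genes (22.6%). The genes were Cnp, Gamt, Mag, Mog, Opalin and Tmem125. Over all 32851 promoters of the table the share was 7.10%. CTGGCAC alone stood in 6 of the 31 (19.4%), against 5.01% of all promoters, and CTGGTAC in 1 (3.23%), that of Mog, against 2.24%. The motif's first base lay 68 bases before the start in Mag, 83 in Mog and 81 in Cnp. Among 20 promoters of cholesterol synthesis genes 1 held it (5.00%), as did 0 of 28 channel gene promoters. A match of letters is a description, not a binding site or a cause. AACAAT, searched in the same way, stood in 3.23% of the myelin promoters against 10.7% of all promoters.

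Myelin genes took 14.8% of all reads of the oligodendrocytes, 15.1% on Pdgfra1 and 14.6% on Pdgfra2. All 26 listed genes averaged at least 20 CPM on both plates, in pooled counts. The sum of the 26 genes per cell ran from 43067 through a median of 147269 to 219737 CPM on Pdgfra1, and from 59960 through 144036 to 228004 CPM on Pdgfra2. The cells of both plates thus spanned nearly the same range. Per kilobase of exon, Ptgds, Tubb4a, Trf, Mal and Cldn11 were among the highest genes, at 7063 to 3657 CPM per kb. Levels given elsewhere in plain CPM do not allow for the length of a gene.

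Mbp, the protein that zips the membrane leaflets, had 5412 CPM in the lowest, 11563 in the median and 15663 in the highest cell of Pdgfra1. On Pdgfra2 the lowest, median and highest cells had 4893, 10348 and 18142 CPM. The pooled levels were 10866 CPM on Pdgfra1 (exact 95% Poisson interval 10830 to 10902) and 10725 CPM on Pdgfra2 (10698 to 10753). The plates thus gave almost the same level, with a log2 ratio of 0.02 (ratios here are Pdgfra1 over Pdgfra2, on pooled CPM plus 1). Other cells of the sort also held reads of myelin genes. Fibroblast-rule cells had 7.01 CPM of Mbp in the pool of both plates, 2.59 CPM on Pdgfra1 and 45.0 CPM on Pdgfra2. They had 57.4 CPM of Cnp, and 25.9% of them reached 20 CPM of it. Their median reads were 864783 on Pdgfra1 and 167712 on Pdgfra2.

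Mog spread from 496 through 3254 to 7880 CPM per cell on Pdgfra1 and from 457 through 4421 to 7778 CPM on Pdgfra2. Opalin, a surface glycoprotein of mature oligodendrocytes, ran from 908 through 1684 to 3609 CPM on Pdgfra1, where every cell had it. On Pdgfra2 it ran from 0 through 1349 to 4023 CPM, with 112 of 117 cells at 20 CPM or more. The cells of the plates overlapped for both genes. Mal, a raft proteolipid, had pooled levels of 13900 CPM on Pdgfra1 and 10288 on Pdgfra2; 1 cell of Pdgfra2 had no read of it. Cldn11, the claudin of the sheath's tight junctions, had 7162 and 6645 CPM on those plates.

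No myelin gene passed 2-fold between plates on pooled CPM + 1, where 13.5% of the 9745 genes at 5 CPM or more were 2-fold higher on Pdgfra1 and 12.8% were 2-fold higher on Pdgfra2. The nearest was Pmp22, a tetraspan protein better known from peripheral myelin, at 297 CPM on Pdgfra1 and 595 CPM on Pdgfra2, a 2.00-fold higher level on Pdgfra2 without the added 1 CPM. It was also the only myelin gene among the 15 most variable genes of 3326 ranked. Its cells ran from 0 through 252 to 2293 CPM on Pdgfra1 and from 0 through 360 to 4532 CPM on Pdgfra2, and 60.6% and 64.1% of them reached 20 CPM.

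**Figure D1:**
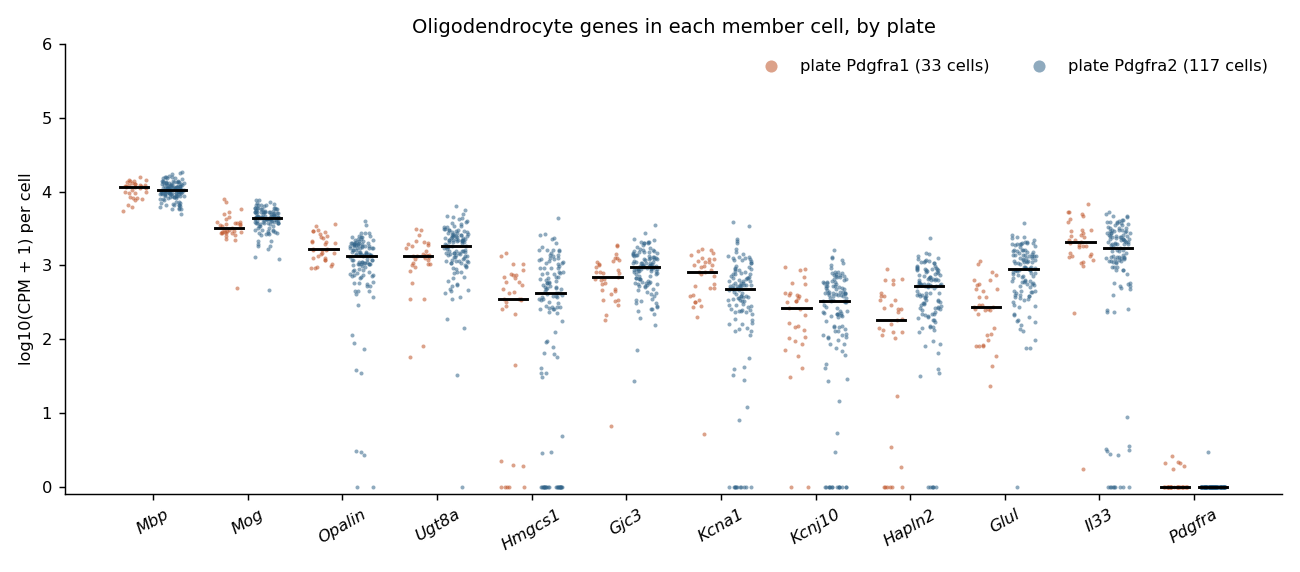
Levels of 12 genes in each oligodendrocyte, as log10(CPM + 1), with 33 cells of Pdgfra1 on the left and 117 of Pdgfra2 on the right of each pair and bars at the medians. Mbp is tight and close to equal on both plates, Hapln2 and Glul sit lower on Pdgfra1, and Pdgfra is at or near 0 in every cell.

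Set against the fibroblast-rule cells of the same plates, 24 of the 26 myelin genes were at least 2-fold higher in the oligodendrocytes on both plates and 0 lower. Over 11727 genes at 5 CPM or more in either kind of cell, 13.1% were 2-fold higher and 24.0% 2-fold lower on both plates. On counts pooled over the plates, the median log2 difference was 8.43 over the myelin list and -0.39 over all genes. Pooling does not hold the plate constant. The fibroblast-rule cells had 50111298 reads on Pdgfra1 and 5822329 on Pdgfra2, and the oligodendrocytes 32304974 and 54204568. The rule itself picked on myelin and fibroblast genes, so this contrast describes the cells and supports nothing further. The exceptions were Pmp22, at 483 CPM in oligodendrocytes and 605 CPM in fibroblast-rule cells, and Tmem98, at 316 and 130 CPM, which missed the 2-fold mark on Pdgfra1.

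Among the 10 genes highest over fibroblast-rule cells were Gpr37, Tspan2, Mbp, Ermn, Ugt8a, Opalin, Olig1, Car2 and Fa2h, with log2 differences of 10.50 to 9.77 on counts pooled over the plates. The plates differed in this: Mbp had a log2 difference of 11.56 on Pdgfra1 and 7.87 on Pdgfra2, and Car2 10.03 and 8.10. Gpr37, an orphan receptor of the myelin membrane, had 2226 CPM in oligodendrocytes and 0.536 CPM in fibroblast-rule cells. Among the 10 lowest were Moxd1, Mgp, Igfbp4, Serping1, Coch, Vtn, Spp1, Bgn and Inmt, at -11.32 to -10.61. Mgp, matrix Gla protein, had 4.53 CPM against 12156 CPM. Ninj2, ninjurin 2, had 140 CPM in oligodendrocytes and a single read in all fibroblast-rule cells together.

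Genes of the paranode and of contact with the axon were present beside the sheath genes: 12 of 15 averaged at least 20 CPM. On both plates 11 of 14 tested were 2-fold higher than in fibroblast-rule cells, against 13.1% of all genes. Cntn2, an adhesion molecule that clusters channels beside the paranode, had 924 CPM on Pdgfra1 and 1033 CPM on Pdgfra2. Nfasc, whose glial form anchors the paranodal loops, had 573 and 431 CPM on those plates. Hapln2, a link protein of the matrix at nodes, ran from 0 through 182 to 890 CPM per cell on Pdgfra1 and from 0 through 518 to 2338 CPM on Pdgfra2. The cells overlapped, and the pooled levels of 232 CPM on Pdgfra1 and 539 CPM on Pdgfra2 gave a log2 ratio of -1.21. It was 1 of 2 genes of this list that were 2-fold higher on Pdgfra2, and another 2 were 2-fold higher on Pdgfra1. With 14 genes tested, these counts lay near the shares over all genes, 12.8% and 13.5%.

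Cytoskeletal genes took 3.21% of all reads of the oligodendrocytes, 2.78% on Pdgfra1 and 3.47% on Pdgfra2. Tubb4a, a beta tubulin of myelinating cells, had 9442 CPM on Pdgfra1 and 13632 CPM on Pdgfra2, or 5416 CPM per kb over both plates. The septins Sept4 and Sept8 and the septin partner Anln, which assemble filaments inside the sheath, had pooled levels of 6815, 676 and 570 CPM. Sept8 was the 1 gene of 16 past 2-fold between plates, with 337 CPM on Pdgfra1 and 879 CPM on Pdgfra2. Over all genes 13.5% were 2-fold higher on Pdgfra1 and 12.8% on Pdgfra2. Cryab, a small heat shock protein abundant in myelin, had 2574 and 4771 CPM. Gsn, an actin-severing protein, had 1241 CPM in oligodendrocytes and 4946 CPM in fibroblast-rule cells, and the sign of that difference turned between plates (log2 -2.18 on Pdgfra1 and 1.59 on Pdgfra2).

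Among lipid genes, those that make the galactolipids of myelin are given first. Ugt8a, which adds galactose to ceramide, ran from 57.0 through 1331 to 3076 CPM per cell on Pdgfra1 and from 0 through 1843 to 6422 CPM on Pdgfra2. Fa2h, which hydroxylates the fatty acid of that ceramide, reached 20 CPM in all 33 and all 117 cells, with medians of 1114 and 1319 CPM. Both genes were at 0.501 CPM in fibroblast-rule cells. Cers2, the synthase for very long chain ceramide, had 1961 and 1818 CPM on the plates, and Gal3st1, which sulfates galactosylceramide to sulfatide, 162 and 177 CPM. Of 12 genes in this list, 11 averaged 20 CPM or more. Between plates 0 differed 2-fold, where 13.5% of all genes were higher on Pdgfra1 and 12.8% on Pdgfra2. On both plates 6 were 2-fold higher than in fibroblast-rule cells, against 13.1% of all genes. The remaining 6, among them Sptlc1 at 103 CPM and Sptlc2 at 86.4 CPM, subunits of the first enzyme of the pathway, were not.

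Of the fatty acid genes, Scd2, a desaturase, had 7305 CPM on Pdgfra1 and 6054 CPM on Pdgfra2, and Aspa, which frees acetate from N-acetylaspartate, 1392 and 1241 CPM. The elongase Elovl7 had 357 CPM, against 1.25 CPM in fibroblast-rule cells and 408 CPM in the endothelial line. In all 18 of 20 genes averaged 20 CPM. Of 18 tested, 8 were 2-fold higher on both plates than in fibroblast-rule cells, against 13.1% of all genes. The median log2 difference was 1.42 on counts pooled over the plates.

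Cholesterol synthesis genes were detected through nearly the whole pathway, 21 of 23 at 20 CPM or more, at lower levels and in fewer cells. Hmgcs1, the synthase at its entry, ran from 0 through 355 to 1476 CPM per cell on Pdgfra1 and from 0 through 418 to 4330 CPM on Pdgfra2. It reached 20 CPM in 75.8% of cells on Pdgfra1 and 78.6% on Pdgfra2. Fdft1, squalene synthase, averaged 148 and 190 CPM and reached 20 CPM in 69.7% and 65.8% of cells. Of 22 genes tested between plates, 18 were lower on Pdgfra1 by sign, with a median log2 ratio of -0.57 against 0.02 over all genes. Only 4 were 2-fold higher on Pdgfra2, where 12.8% of all genes were. The 4 included Cyp51, a demethylase of lanosterol, with 146 CPM on Pdgfra1 and 296 CPM on Pdgfra2. The regulator Srebf2 had 321 and 529 CPM on the plates. On both plates 8 of 22 genes were 2-fold higher than in fibroblast-rule cells, against 13.1% of all genes. Within a plate the median pairwise correlation of log2 levels across cells was 0.09 on Pdgfra1 and 0.13 on Pdgfra2, against 0.02 for all genes at 20 CPM or more. Single pairs were higher: Hmgcs1 had r = 0.42 and 0.28 with Insig1, 0.36 and 0.32 with Fdft1 and 0.34 and 0.29 with Sqle on those plates, and 0.30 and -0.05 with reads per cell. Cells of a plate share its depth and preparation.

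Lipid carriers and secreted lipid enzymes differed from gene to gene. Enpp2, autotaxin, had 4956 CPM on Pdgfra1 and 4909 CPM on Pdgfra2, and 456 CPM in fibroblast-rule cells. Abca2, a lysosomal lipid transporter, and Npc1, the lysosomal cholesterol exporter, had 805 and 708 CPM. Apod and Apoe, the apolipoproteins, were abundant but lower than in fibroblast-rule cells, with 5170 against 12651 CPM and 1434 against 3990 CPM. Of 20 genes, 6 were 2-fold higher and 3 lower on both plates, where 13.1% of all genes were higher and 24.0% lower.

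**Figure D2:**
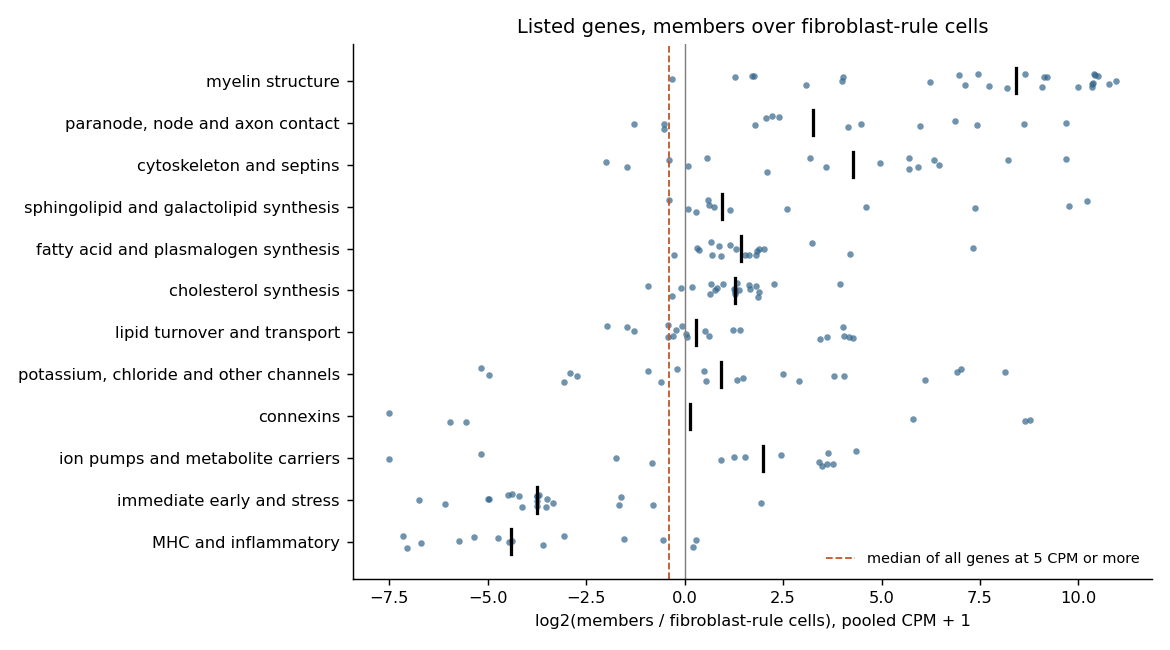
Log2 difference of each listed gene, oligodendrocytes over fibroblast-rule cells, on CPM + 1 from counts pooled over both plates. Each point is 1 gene, with a bar at each list's median. The dashed line is the median of all genes tested. Myelin genes centre at 8.43, cholesterol genes at 1.27, and immediate early and MHC genes lie left of 0 with medians of -3.75 and -4.41.

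Channel genes ranged from abundant to unread. Of 24 listed, 12 averaged 20 CPM or more and 6 were under 1 CPM. Tmem63a, a mechanosensitive cation channel, had 682 CPM on Pdgfra1 and 874 CPM on Pdgfra2. The Shaker-type potassium channel gene Kcna1 ran from 4.14 through 825 to 1669 CPM per cell on Pdgfra1 and from 0 through 476 to 3908 CPM on Pdgfra2. Its relative Kcna6 had 336 and 258 CPM, while Kcna2 had 35.8 CPM on Pdgfra1 and 16.3 CPM on Pdgfra2, with a median of 0 on both. The cells of the plates overlapped for all 3 Kcna genes.

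Kcnj10, the inward rectifier that takes up potassium, had 321 CPM on Pdgfra1 and 358 CPM on Pdgfra2, and reached 20 CPM in 31 of 33 and in 100 of 117 cells. In fibroblast-rule cells it stood at 0.232 CPM. Its usual partner Kcnj16 was at 0.0310 CPM on Pdgfra1 and 2.80 CPM on Pdgfra2. Hcn2, a cation channel opened by hyperpolarization, reached 20 CPM in 33.3% of cells on Pdgfra1 and 64.1% on Pdgfra2, with 116 and 221 CPM, and in 30.3% and 65.0% when every cell was thinned to 90000 reads. The sodium channel subunits Scn2b and Scn3a and the calcium channel genes Cacna1a and Cacna1d averaged 1.13 CPM or less. For Ano4, an anoctamin, the levels were 205 CPM on Pdgfra1 and 126 CPM on Pdgfra2. Of 15 channel genes tested between plates 3 were 2-fold higher on Pdgfra1 and 0 on Pdgfra2, against 13.5% and 12.8% of all genes. Of 20 set against fibroblast-rule cells 10 were 2-fold higher and 4 lower, against 13.1% and 24.0% of all genes.

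Gap junction genes fell into those present and those absent. Gjc3 and Gjb1, connexins of oligodendrocytes, had 765 and 375 CPM on Pdgfra1 and 1018 and 518 CPM on Pdgfra2. Gja1, the main astrocyte connexin, was at 0.0929 CPM (0.0192 to 0.271) and 1.49 CPM (1.19 to 1.86), and was at 122 CPM in fibroblast-rule cells. Gja4 was at 0.0347 CPM, and Gja5 and Gjc1 had no read in any oligodendrocyte.

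Receptors for glutamate were narrow too. Grm3, a metabotropic receptor, had 414 CPM on Pdgfra1 and 516 CPM on Pdgfra2 and reached 20 CPM in 32 of 33 and 104 of 117 cells, while Gria4, an AMPA receptor subunit, had 117 and 64.3 CPM with a median of 0 on Pdgfra2. Gria3 and the NMDA subunit Grin2a had no read at all. Glul, glutamine synthetase, ran from 22.3 through 272 to 1129 CPM per cell on Pdgfra1 and from 0 through 887 to 3706 CPM on Pdgfra2. The cells overlapped, but the pooled levels of 335 and 1032 CPM gave a log2 ratio of -1.62. Glul is also an astrocyte gene. The 8 astrocyte markers, of which 2 averaged 20 CPM on Pdgfra1 and 3 on Pdgfra2, summed to 0 to 487 CPM per cell on Pdgfra1 and 0 to 8991 CPM on Pdgfra2, and the ratio without mixed wells was -1.54.

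Carriers and iron genes completed the picture of the support functions. Slc12a2, a sodium, potassium and chloride cotransporter, had 630 and 628 CPM on the plates, Slc16a1, the monocarboxylate carrier for lactate, 294 and 277 CPM, and Slc44a1, a choline carrier, 1830 and 1549 CPM. Slc5a11, a sodium-coupled carrier, was low and plate-dependent, with 3.99 CPM on Pdgfra1 and 41.3 CPM on Pdgfra2, where 17 of 117 cells reached 20 CPM. Trf, transferrin, had 14011 and 15284 CPM, Fth1, the ferritin heavy chain, 9039 and 14650 CPM, and Car2, a carbonic anhydrase, 5737 and 8323 CPM. In fibroblast-rule cells Trf, Fth1 and Car2 had 3731, 2643 and 7.06 CPM. The iron exporter gene Slc40a1 had no read.

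Of 16 lineage regulators, 12 averaged 20 CPM. On both plates 13 of 14 tested were 2-fold higher than in fibroblast-rule cells, against 13.1% of all genes. Myrf, the activator of myelin genes, ran from 156 through 701 to 1705 CPM per cell on Pdgfra1 and from 45.5 through 629 to 2752 CPM on Pdgfra2, so every cell had it. Olig1 had 1726 and 1718 CPM and Sox10 697 and 534 CPM on the plates, and Nkx6-2, a homeobox regulator of late maturation, 283 and 297 CPM. Zfp488, a zinc finger partner of Olig2, differed: 5 of 33 cells on Pdgfra1 and 58 of 117 cells on Pdgfra2 reached 20 CPM, and the pooled levels were 15.0 and 134 CPM. Thinned to 90000 reads, 5 of 33 and 57 of 117 cells did.

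Maturation was scored with 4 short gene sets, each passed when at least 2 of its genes reached 50 CPM, and a cell could pass several. The first mature set, Ptgds, Il33, Apod and Car2, was passed by 149 of 150 cells (99.3%, 96.3 to 100%), 33 of 33 on Pdgfra1 and 116 of 117 on Pdgfra2. Apod and Car2 were enough to pass it. The cell in well M22 of Pdgfra2 did so at 11864 CPM of Apod and 12039 CPM of Car2, with 6.55 CPM of Ptgds and no read of Il33. Passing the set therefore does not mark a cell as rich in Ptgds or Il33. The second mature set, Klk6, Anxa5, Hopx and Serpinb1a, was passed by 33 cells (22.0%, 15.7 to 29.5%), 4 on Pdgfra1 and 29 on Pdgfra2. Klk6 itself had no read on Pdgfra1, so passing this set does not mark a cell as holding Klk6. The early set, Enpp6, Bmp4, Neu4, Gpr17 and Itpr2, was passed by 8 cells (5.33%, 2.33 to 10.2%), 1 on Pdgfra1 and 7 on Pdgfra2, and 6.67% of cells passed it with the threshold at 20 CPM and 3.33% at 100 CPM. The progenitor set, Pdgfra, Cspg4, Ptprz1 and Vcan, was passed by 2 cells, both on Pdgfra2. Passing the Ptgds set alone was the commonest state, in 111 cells, and 30 cells passed exactly the Ptgds and Klk6 sets. The sets share no gene with the membership rule, but some are common in other cells: Apod and Ptgds had 12651 and 4405 CPM in fibroblast-rule cells.

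Klk6, a secreted protease, was itself rare. It had no read on Pdgfra1, which allows up to 0.114 CPM, and reached 50 CPM in 10 cells of Pdgfra2, up to 652 CPM. Serpinb1a, a protease inhibitor, was broad, with 321 CPM on Pdgfra1 and 705 CPM on Pdgfra2 and 21 of 33 and 98 of 117 cells at 20 CPM or more. S100b, a calcium-binding protein, was low on Pdgfra1 at 4.02 CPM and patchy on Pdgfra2 at 80.3 CPM, where 17 of 117 cells reached 20 CPM and the highest had 2007 CPM. Il33, the alarmin stored in the nucleus, had medians of 2100 and 1743 CPM.

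A single cell, in well D4 of Pdgfra2, passed the early and progenitor sets and not the Ptgds set. Ptgds itself was at 2603 CPM in this cell, but Il33 and Car2 were at 2.21 CPM each and Apod had no read. It had 453368 reads. Its early genes stood at 6229 CPM for Enpp6, a choline phosphodiesterase, 1125 for Gpr17, a receptor of premyelinating cells, 1167 for the sialidase Neu4 and 423 for Bmp4. These were far above the pool of all oligodendrocytes, in which the same 4 genes had 205, 11.7, 6.13 and 4.58 CPM. That pool includes the cell itself. The oligodendrocytes of Pdgfra1, a pool without it, had 122 CPM of Enpp6, 7.27 CPM of Gpr17 and no read of Neu4 or Bmp4. Gpr17 and Neu4 were also read in progenitors outside the oligodendrocyte rule, described below. The cell in D4 also had 516 CPM of Ptprz1 and 428 CPM of Vcan, but no read of Pdgfra or Cspg4. The sheath genes of this cell were uneven: Mbp at 17966 CPM, Mag at 2503, Mog at 457 and Mobp at 22.1 CPM, with no read of Mal, Opalin or Apod. Of the other 7 cells passing the early set, none had a read of Neu4 or Bmp4, and all had Opalin at 37.7 CPM or more. The second cell passing the progenitor set, in well I23 of Pdgfra2, did so through Cspg4 at 311 CPM and Vcan at 1192 CPM.

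Progenitor genes were otherwise nearly absent. Of 14 listed, only Cspg4 averaged 20 CPM or more, on Pdgfra2. Pdgfra, the gene whose locus drives the reporter, had 0.186 CPM on Pdgfra1 (0.0682 to 0.404), 0.0184 CPM on Pdgfra2 (0.000467 to 0.103) and 271 CPM in fibroblast-rule cells. The reporter sequence was listed as eGFP, which had 2.51 CPM on Pdgfra1 and 0.0369 CPM on Pdgfra2, with 1 oligodendrocyte at 20 CPM. In fibroblast-rule cells it averaged 78.2 CPM, and 58.8% of cells reached 20 CPM. The cell cycle genes Mki67, Top2a and Cdk1 had no read in any oligodendrocyte.

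The sort did hold progenitors outside the oligodendrocyte rule: 5 cells, all on Pdgfra1, passed the progenitor set and neither membership rule, and all had Olig1 at 50 CPM or more. In oligodendrocytes of Pdgfra1 the 14 progenitor genes summed to 28.5 CPM, against 11769 CPM in those 5 cells, in which all 14 averaged at least 20 CPM; 4 of the 14 had chosen those cells. Pdgfra had 0.186 CPM in the oligodendrocytes and ran from 669 to 1803 CPM over the 5 cells. Enpp6 had 122 CPM in the oligodendrocytes of Pdgfra1 and 0.211 CPM in the 5 cells. Neu4 had no read in the oligodendrocytes of that plate and 1691 CPM in the 5 cells. Gpr17 had 7.27 and 790 CPM, and Itpr2 12.4 and 220 CPM. Neu4 reached 20 CPM in all 5 cells, and Gpr17 and Itpr2 in 4 each. These 3 genes of the early set were thus not particular to early oligodendrocytes. The regulators divided: Myrf had 672 CPM in the oligodendrocytes of Pdgfra1 and 10.6 CPM in the 5 cells, whereas Olig1 had 1726 and 5204 CPM and Olig2 250 and 1817 CPM. Over the 10816 genes at 5 CPM or more in either, 27.6% were 2-fold higher and 41.4% 2-fold lower in the oligodendrocytes of Pdgfra1. Of the 23 cholesterol genes 1 was higher and 13 were lower by that measure, and of 9 cell cycle genes tested 1 was higher and 8 were lower. The progenitor and cell cycle sums come from 5 cells of 1 plate. Mki67, Cdk1, Ccna2 and Birc5 each reached 20 CPM in only 1 of the 5 cells, with a median of 0, and Top2a in 2. Pcna and Mcm2 did so in 4 cells each and Mcm5 in 3.

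**Figure D3:**
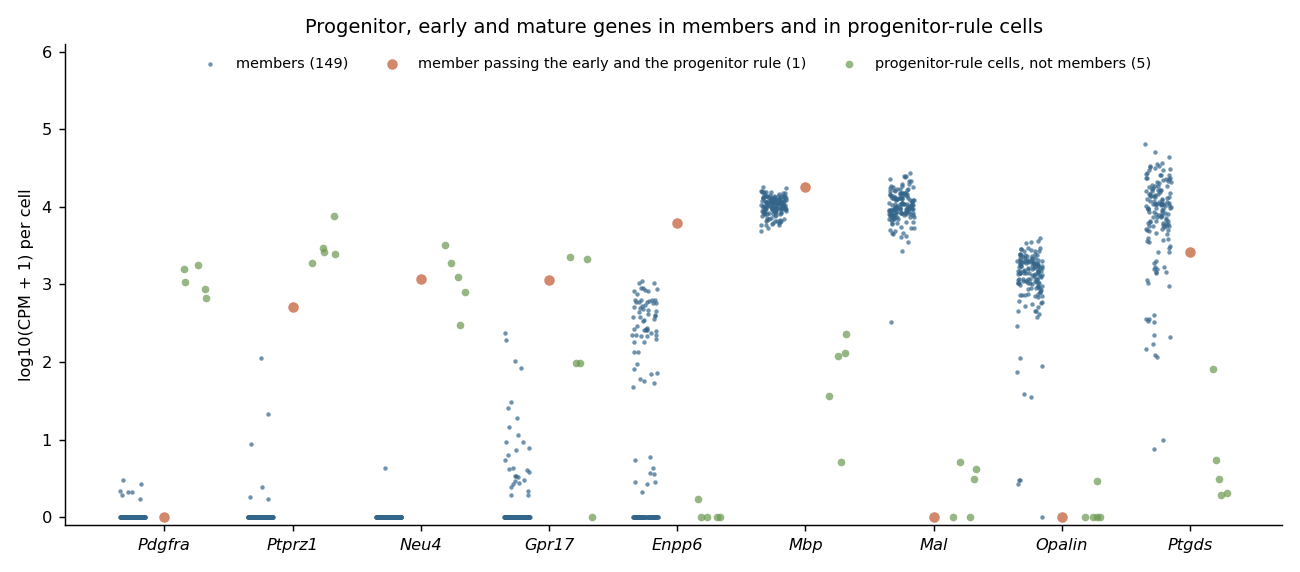
Levels of 9 genes per cell as log10(CPM + 1): 149 oligodendrocytes (members), the cell in well D4 that passed the early and progenitor sets, and the 5 progenitor-rule cells. The cell in D4 has Enpp6 at 6229 CPM and Mbp at 17966 CPM with no read of Mal or Opalin, and it lacks Pdgfra, which all 5 progenitor-rule cells have.

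Enpp6, of the early genes, was found in a minority of oligodendrocytes. It reached 20 CPM in 9 of 33 cells on Pdgfra1 and in 55 of 117 on Pdgfra2, with pooled levels of 122 and 254 CPM and a highest cell of 835 CPM on Pdgfra1 and 6229 CPM on Pdgfra2. Thinned to 90000 reads, the same numbers of cells reached 20 CPM. Across cells its log2 level ran against that of Ptgds, prostaglandin D synthase, with r = -0.70 over 33 cells of Pdgfra1 and r = -0.44 over 117 cells of Pdgfra2. Ptgds was the gene most opposed to Enpp6 of 6209 compared, by the correlation nearer 0 of the 2 plates. Most like Enpp6 were Anln, at 0.39 and 0.42, Cpox, an enzyme of haem synthesis, at 0.45 and 0.37, Kcnq1ot1 at 0.41 and 0.31 and Sepp1, selenoprotein P, at 0.54 and 0.31. Its correlation with reads per cell was -0.12 and 0.06. With Mog the values were -0.02 and -0.10.

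Ptgds itself was among the most variable genes. It ran from 360 through 8361 to 26226 CPM per cell on Pdgfra1 and from 6.55 through 9747 to 64425 CPM on Pdgfra2, and it varied with Ckb, the brain creatine kinase (r = 0.42 and 0.39), and Cd63, a tetraspanin of late endosomes (0.58 and 0.34). Opalin went with Mal (0.46 and 0.53) and Mog (0.26 and 0.43). Over the 26 myelin genes the median pairwise correlation was 0.22 on Pdgfra1 and 0.16 on Pdgfra2, against 0.02 for all genes.

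**Figure D4:**
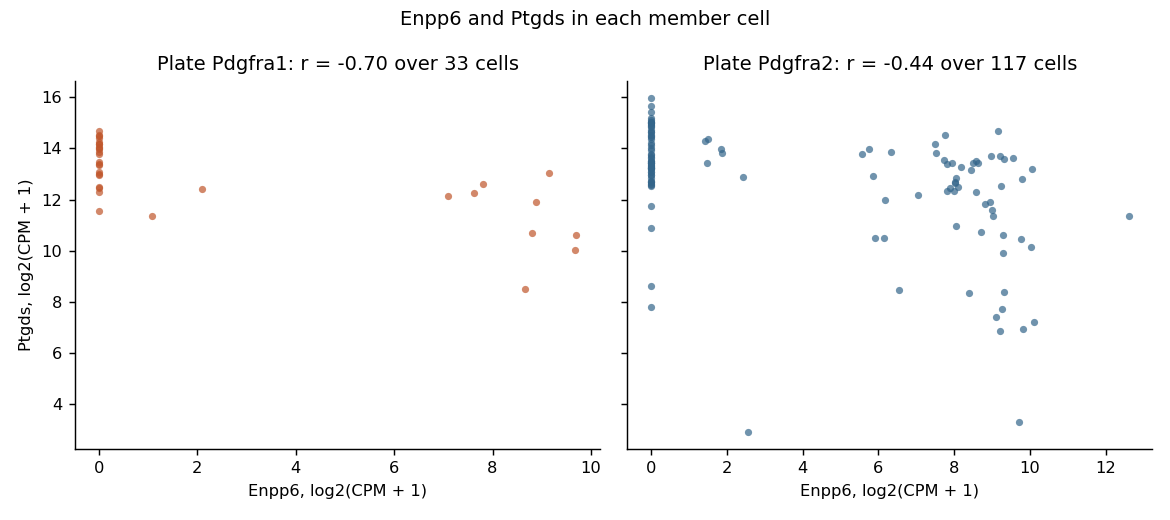
Log2(CPM + 1) of Enpp6 (horizontal) and Ptgds (vertical) in each oligodendrocyte, 33 cells of Pdgfra1 on the left and 117 of Pdgfra2 on the right. Cells with no Enpp6 form a column at 0 and mostly have high Ptgds; r is -0.70 and -0.44.

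Of the immediate early genes, Fos was the first and Egr1 another of the 15 most variable genes of 3326 ranked. Fos ran from 1.18 through 10.3 to 11113 CPM on Pdgfra1 and from 0 through 0 to 9308 CPM on Pdgfra2, with 13 of 33 and 25 of 117 cells at 20 CPM or more. Fos and Egr1, a zinc finger immediate early factor, moved together, with r = 0.87 and 0.83. Of 16 genes tested between plates, 8 were 2-fold higher on Pdgfra1 and 0 on Pdgfra2, against 13.5% and 12.8% of all genes. The pooled sums of the list were 3317 CPM on Pdgfra1 and 1596 CPM on Pdgfra2. The median sums per cell were 738 and 833 CPM, so the pooled difference did not hold for the median cell. Against fibroblast-rule cells 16 of 20 were 2-fold lower on both plates and 1, Hsp90aa1, was higher, at 441 against 114 CPM. MHC and inflammatory genes were low as well, with 0 of 14 higher and 11 lower. Over all genes 13.1% were higher and 24.0% lower on both plates. B2m, the light chain of MHC class I, had 77.1 CPM against 2102 CPM in fibroblast-rule cells.

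Between plates the named differences were mostly in genes outside these lists. Npsr1, the neuropeptide S receptor, had no read in the 33 cells of Pdgfra1 and 131 CPM on Pdgfra2, where 71.8% of cells had a read. Likewise Fcho1, an endocytic adaptor, had no read on Pdgfra1 and 78.9 CPM on Pdgfra2. The Y-linked Eif2s3y was on the same list, and among the oligodendrocytes alone, at 20 CPM, 0 of 33 on Pdgfra1 had Y-linked genes without Xist, 22 had Xist and 11 had neither. On Pdgfra2 40 of 117 had Y-linked genes without Xist, 44 had Xist and 33 had neither. Higher on Pdgfra1 were Ly6e, a small membrane-anchored protein, at 50.2 against 0.719 CPM, and the chemokine Cxcl12 at 56.2 against 5.79 CPM. So was Synpr, a synaptic vesicle protein, at 143 against 25.3 CPM. Ly6e and Cxcl12 had 960 and 3147 CPM in fibroblast-rule cells of Pdgfra1. The endothelial line had 5075 and 1876 CPM of them. Of 8 endothelial markers, 5 averaged 20 CPM on Pdgfra1 and 0 on Pdgfra2, and they summed to 0 to 6468 CPM per cell on Pdgfra1 and 0 to 268 CPM on Pdgfra2. Their part in these plate differences was not tested.

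Cspg4 and 5 genes beside it formed a run. Odf3l1, Cspg4, Snx33, Imp3, Snupn and Ptpn9 lie in a row at chr9:56848659-57062807 (mm10), a span of 214 kb, and all 6 were at least 4-fold higher on Pdgfra2. They were chosen after their values were seen. With 5 CPM in place of 1 CPM added to each level, 5 of the 6 passed 4-fold and Odf3l1 had a log2 ratio of -1.33. Imp3, a protein of ribosomal RNA processing, ran from 0 through 53.4 to 273 CPM per cell on Pdgfra1 and from 23.8 through 1200 to 2401 CPM on Pdgfra2. Snx33, a sorting nexin, ran from 0 through 22.0 to 574 CPM and from 4.93 through 1084 to 3216 CPM. The cells of the plates overlapped: for Imp3, 21 of 33 cells on Pdgfra1 were at or above the lowest cell of Pdgfra2, and 4 of 117 cells on Pdgfra2 were at or below the highest of Pdgfra1. For Snx33 these were 18 of 33 and 22 of 117 cells. Of 13 genes at 5 CPM or more within 500 kb of Cspg4, the other 7 had log2 ratios of -0.68 to 2.07. In fibroblast-rule cells 4 of the 6 were at least 2-fold higher on Pdgfra2 as well: Imp3 had 164 CPM on Pdgfra1 and 1540 CPM on Pdgfra2, and Snx33 101 and 758 CPM. Cspg4 itself, at 131 and 214 CPM, and Ptpn9, at 223 and 304 CPM, were not.

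Plates of the other lines gave further levels for the same genes. In the 4 plates of the Pdgfrb(BAC)eGFP and NG2dsRed line Snx33 had 1678 to 1809 CPM and Imp3 2052 to 2556 CPM. In the endothelial line Imp3 had 1523 and 1476 CPM on plates EC3 and EC4 and 569 and 570 CPM on EC5 and EC6. Snx33 had 17.0 to 59.6 CPM on those plates. Snupn had similar levels in both lines, 341 to 687 CPM on the endothelial plates and 348 to 468 CPM on the others. NG2 is the protein of Cspg4. The cause of the run was not tested, and plate, animal and preparation cannot be told apart.

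**Figure D5:**
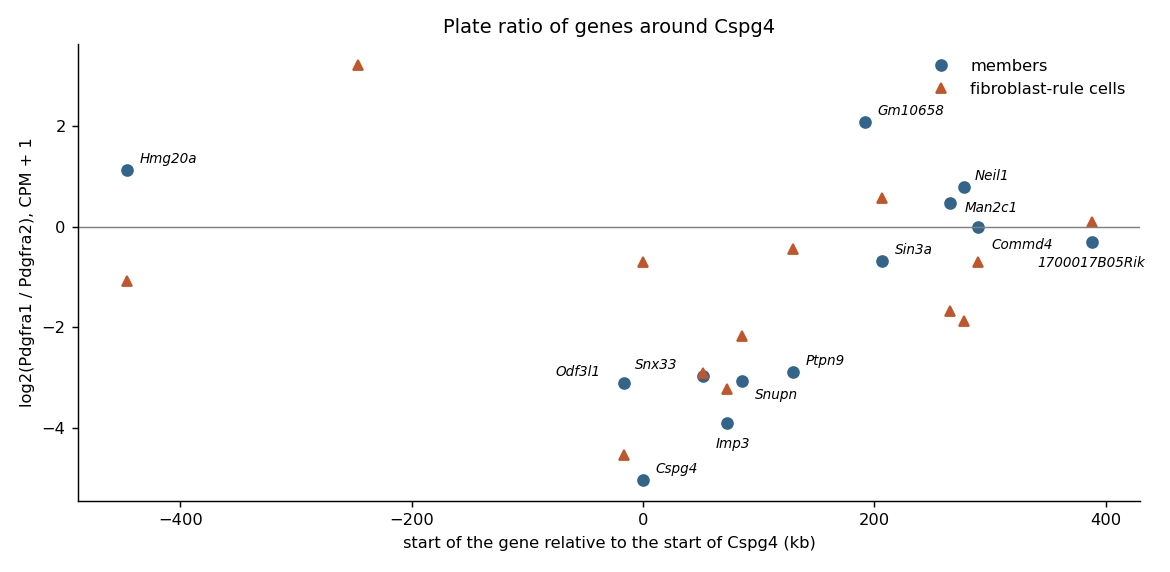
Log2 ratio of pooled CPM + 1, Pdgfra1 over Pdgfra2, for genes within 500 kb of Cspg4, by the distance of their starts; circles are oligodendrocytes (members), triangles fibroblast-rule cells. The 6 genes from Odf3l1 to Ptpn9 lie below -2 in oligodendrocytes, and their neighbours on either side do not.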

How the data were processed

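Single sorted cells were sequenced with SMART-seq2, per the labels' protocols. The authors deposited whole-number read counts per gene and cell (19937 genes, 3186 cells), not normalized and without molecular tags. STAR 2.4.2a and the build mm10 are named, with no role, per the submitters' processing notes; no counter, annotation or strand setting is named in the labels or headers. The deposited table of scaled counts was not used. The oligodendrocyte rule, gene lists, maturation sets and naming rules were chosen with earlier results of these data known.

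From the counts, CPM were computed per cell and from counts pooled over cells, with exact Poisson intervals for pooled levels and exact binomial intervals for shares, both at 95%. Log2 ratios used pooled CPM plus 1. Genes entered a comparison at 5 CPM or more in either group and were counted past 2-fold. Gene shares used 20 CPM. Named genes were the 10 largest differences in each direction at 50 CPM in one group and a read in at least 25% of its cells. Correlations were Pearson's, on log2(CPM + 1), within a plate. Exon lengths and coordinates came from GENCODE M21 (mm10) and promoters from RefSeq (GRCm38.p6). Reads per oligodendrocyte were 124065 to 1467635. Alternatives were other CPM cuts, pseudocounts and minimums, thinning to 90000 reads, other scalings, single plates and leaving out mixed wells. The ratio rule was tested on simulated data. Python 3.11.15 with numpy 2.4.6, pandas 2.3.3 and scipy 1.17.1 was used. Values of a few genes are not reported here.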

Additional observations from a re-analysis of the deposited data

How the results depend on the processing

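Of 146 comparisons of a summary value with an alternative setting, 134 gave a count within 1.5 times the reported one or a share within its counting interval. These limits are wide: the early set was passed by 3.33% of cells at a threshold of 100 CPM, and with 5 CPM added 945 genes were 2-fold higher on Pdgfra1 and 877 on Pdgfra2. Which plate had more such genes turned with the setting. The reported counts were 1314 on Pdgfra1 and 1248 on Pdgfra2, against 1366 and 1380 after thinning and 1277 and 1295 with median-of-ratios scaling. The counts between plates moved with the minimum level: 1698 genes were 2-fold higher on Pdgfra1 and 2054 on Pdgfra2 with no minimum, and 716 were higher on Pdgfra1 and 558 on Pdgfra2 at a minimum of 20 CPM, by construction of a shorter gene list. Against fibroblast-rule cells, the counts on Pdgfra1 alone were 2324 higher and 4346 lower, and on Pdgfra2 alone 3301 and 4663, since only 1 plate had to pass. Without Pdgfra2, 33 cells remained, with 12.1% passing the Klk6 set, 100% the Ptgds set and 0% the progenitor set, and 0 progenitor genes at 20 CPM. Without the 15 mixed wells the plate counts were 1240 and 1394, and 1514 genes were higher and 2874 lower than in fibroblast-rule cells.

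For single genes, correlations and the run beside Cspg4, 78 alternatives moved a log2 ratio or r by 0.1 or more and 233 did not. None of the 299 alternatives for a log2 ratio of a single gene turned its sign. They covered only genes picked with earlier results known, many of them with large differences, and say little about other genes. Gsn, which was not among them, turned its sign against fibroblast-rule cells between plates. With alternatives added after the data were seen (thinning, mixed wells or early cells left out, a larger pseudocount), the correlation of Enpp6 with Ptgds ranged from -0.70 to -0.67 on Pdgfra1 and from -0.45 to -0.42 on Pdgfra2. The run beside Cspg4 had 6 genes past 4-fold after thinning, without mixed wells and with the mean of per-cell CPM, and 5 with 5 CPM added. No paired analysis was possible because no result comes from a test and each line is 1 sample. Depth limits genes at a few CPM: a single read is worth 8.06 CPM in the shallowest oligodendrocyte and 0.681 CPM in the deepest.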
